A study of Drosophila melanogaster with 2 samples.

Results

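Ecdysone is the steroid hormone that times moulting, metamorphosis and several steps of embryogenesis in insects. Its active form binds a heterodimer of the nuclear receptors EcR and Usp, the latter the fly relative of the vertebrate RXR receptors. The liganded receptor switches on a small set of early genes, whose products in turn control early-late and late genes, and many of these products are nuclear receptors themselves. In the fly embryo a pulse of ecdysteroids around mid-embryogenesis accompanies germ band retraction and cuticle formation. The members described here are 10 protein-coding genes of this cascade and of the receptor family, EcR, usp, br, Eip74EF, Eip75B, Hr3, Hr4, Hr39, ftz-f1 and Hr38, of 13945 protein-coding genes on the 6 chromosome arms. They were selected by name and not by any measured value, although earlier results of these data were known when the list was drawn up.

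The data are chromatin immunoprecipitation followed by sequencing (ChIP-seq) of a protein encoded by CG11085, a homeobox gene, fused to eGFP, an enhanced green fluorescent protein. Whole embryos of 0 to 24 hours from the transgenic strain CG11085-GFP were used, and the fusion was precipitated with an anti-GFP antibody. The series has 1 group of 2 biological replicates, both carrying the insertion that targets CG11085; no control library was analysed here, and the sources used here do not say how far the tagged copy matches the normal one in level or pattern. The embryos are mixed in age and tissue, so sites bound in few cells and sites bound weakly in many cannot be told apart. The depth of the libraries is unknown, because the peak files carry no read totals.

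A site is the summit of a peak in the authors' conservative list, which rests on both replicates, and it was assigned to a gene when it lay between the ends of that gene or at most 5 kb outside them. The list held 2610 peaks on the arms, of which 17 fell at the 10 genes. Each has a pooled signal, from the reads of both replicates together, and a signal in each replicate; the scale of these signals is not stated. It also has a global irreproducible discovery rate (IDR), the authors' measure of how alike a region ranked in both replicates, given as its −log10, for which the list starts at 2 (an IDR of 0.01) and the files stop at 5. Genes and transcription start sites (TSSs) are those of Ensembl release 115, and all positions are in dm6.

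Hr4 had 9 of the 17 sites, and 5 other genes shared the remaining 8. Hr3, Eip75B and br had 2 each and EcR and usp 1 each, while Eip74EF, Hr39, ftz-f1 and Hr38 had none. Having a site was thus seen in 6 of the 10 genes, against 35.4% of all protein-coding genes. The members are long, however, with a median length of 55.7 kb (3.51 kb for usp to 114 kb for Eip75B) against 2.17 kb for all coding genes, and longer genes contain more sites. Among coding genes at least as long as the shortest member the share was 44.3%, and among the 1013 of at least 20 kb it was 50.2%. Among the 261 at least as long as the median member it was 58.2%, near the members' 6 of 10. Members shorter than the median fall below that last cut, and none of these shares is matched to the members' lengths. At least 2 sites were present in 4 members, against 11.6% of all coding genes and 34.5% of those 261. Per 10 kb of gene and flanks the 10 genes had 0.261 sites, the whole of the arms 0.195 and the 261 long genes 0.112. Without Hr4 the other 9 genes had 0.139. None of these differences was tested, since the genes were named with results known and they are not replicates of a condition.

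**Figure D1:**
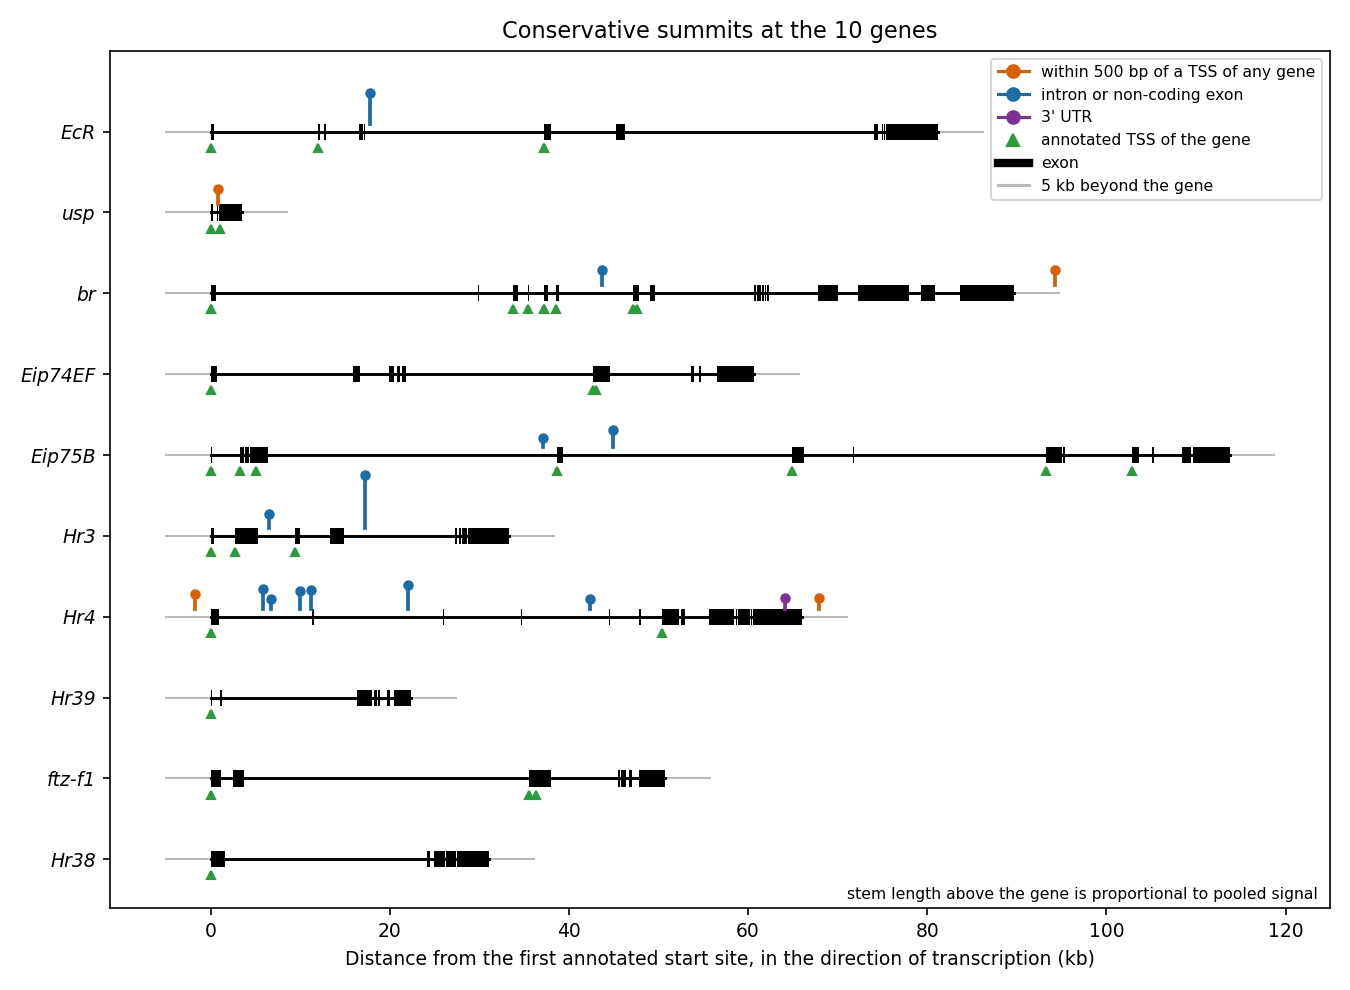
Map of the 10 genes drawn in the direction of transcription, with distance from the first annotated start site in kb on the horizontal axis, exons of all transcripts as black boxes, start sites as green triangles and the 5 kb flanks in grey. Each stem is a conservative summit with a length proportional to its pooled signal and a colour for its class; Hr4 has 9 summits, 4 of them within a single intron, and 4 genes have none.

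The receptor genes had 1 site each, in different kinds of position. EcR (FBgn0000546, chr2R:6087873-6169087, reverse strand) encodes the ecdysone receptor itself and has 4 annotated TSSs for 6 transcripts. Its peak at chr2R:6151108-6151447 gave 188.8 in replicate 1, 88.3 in replicate 2 and a pooled signal of 290.0, which exceeded that of 89.3% of all conservative peaks. Replicate 1 was thus 2.14 times as high as replicate 2, and the −log10 global IDR was 4.36. The summit lay in intron 3 of EcR-RA, 5851 bp downstream of the TSS shared by EcR-RD and EcR-RE 17809 bp downstream of the EcR-RA TSS and over 19 kb upstream of the TSSs of EcR-RB, EcR-RC and EcR-RG. The nearest TSS of any kind was that of a transfer RNA gene, tRNA:Asn-GTT-1-1, 1398 bp away, and several tRNA genes lie in the EcR window. No other region at EcR came near the list: of 51 ranked regions that did not pass, the best had a −log10 global IDR of 1.01.

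The gene of the partner receptor, usp (FBgn0003964, chrX:2038798-2042311, reverse strand), was the only member with a site near one of its own start sites. The peak at chrX:2041309-2041648 had signals of 77.4 in replicate 1 and 64.7 in replicate 2 and a pooled signal of 144.1, so the replicates differed by a factor of 1.19. The summit was in an exon of usp-RB, 832 bp downstream of the TSS of that transcript and 167 bp upstream of the usp-RA TSS. The summit also lies inside Actn, the α-actinin gene, which overlaps usp, so it cannot be given to usp alone. Within 1 kb of a TSS, usp was the single bound member of 10, against 15.1% of all coding genes and 21.5% of the 261 long ones. Of the 35 annotated TSSs of the 10 genes, 1 had a conservative summit within 500 bp and 2 within 1 kb, both at usp.

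Among the early genes, which respond directly to the receptor, br and Eip75B had sites and Eip74EF did not. The broad gene br (FBgn0283451, chrX:1575132-1664869, forward strand) encodes BTB zinc finger transcription factors of the onset of metamorphosis and has 9 TSSs. Site 1, at chrX:1618686-1619025, had signals of 64.8 in replicate 1 and 73.2 in replicate 2, with a pooled signal of 142.6. It was 1 of the 2 sites of the 17 at which replicate 2 was the higher. The summit lay in intron 1 of br-RN, an intron of 48416 bp, 3452 bp upstream of the TSS of br-RS, and also inside the nested gene Mur2B, 701 bp upstream of a Mur2B TSS. Site 2, at chrX:1669211-1669550, had signals of 79.0 and 62.6 and a pooled signal of 143.1, almost the same as site 1. It lay 4512 bp beyond the 3' end of br, close to the edge of the 5 kb window, and 84 bp upstream of the TSS of the neighbour CG3740. The next conservative summit outside the window of br was 57453 bp from the gene.

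Eip75B (FBgn0000568, chr3L:17950953-18064696, reverse strand), a heme-binding nuclear receptor related to vertebrate Rev-erb, is the longest of the genes and has 7 TSSs, one for each transcript. Both of its sites lay in intron 3 of Eip75B-RF, an intron of 65240 bp, on either side of the TSS of Eip75B-RG. Site 1, at chr3L:18027386-18027725, was 1524 bp upstream of that TSS and was the weakest of the 17, with a pooled signal of 85.3 and replicate signals of 44.3 and 35.1. Its −log10 global IDR of 2.12 was the closest to the threshold, and it was in the list of neither single replicate. Site 2, at chr3L:18019652-18019991, was 6210 bp downstream of the same TSS and stronger, with a pooled signal of 158.5. Its signals of 120.4 in replicate 1 and 49.5 in replicate 2 gave the highest replicate ratio at these genes, 2.43.

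Eip75B also gained most when the authors' larger list was used, from 2 sites to 6. The added peaks lay at the far end of the gene, at and near the promoters of the shorter transcripts. One was 163 bp downstream of the TSS of Eip75B-RD, with a pooled signal of 81.9 but replicate signals of 67.5 and 17.4. A pair of peaks, 303 and 95 bp downstream of the TSS of Eip75B-RA with pooled signals of 81.5 and 11.1, had the same replicate regions behind them (35.9 and 30.3) and are counted as 2 of the 6. The other lay 4863 bp downstream of the TSS of Eip75B-RD, at 78.3. These regions had −log10 global IDRs from 0.558 to 1.47 between the replicates.

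Eip74EF (FBgn0000567, chr3L:17558672-17619325, reverse strand), which encodes ETS-domain transcription factors, had no site in any of the 4 thresholded lists. It was not short of ranked regions, with 90 in its window. The best of them, 15209 bp upstream of the TSS of Eip74EF-RB, had signals of 40.2 and 26.2, a pooled signal of 66.3 and a −log10 global IDR of 1.62. The nearest conservative summit was 34346 bp from the gene.

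The early-late receptor genes differed most among themselves. Hr3 (FBgn0000448, chr2R:10203995-10237348, reverse strand), the fly relative of the vertebrate ROR receptors and an activator of ftz-f1, had the strongest site of the 17. Site 2, at chr2R:10219958-10220181, had signals of 281.7 in replicate 1 and 207.7 in replicate 2 and a pooled signal of 499.2, rank 101 of 2610, with a −log10 global IDR at the cap of 5. Its summit lay 7899 bp downstream of the TSS of Hr3-RA, Hr3-RF and Hr3-RH, in intron 1 of Hr3-RD, and also inside the nested genes CG12912 and CG46321. Site 1, at chr2R:10230706-10231045, lay 10818 bp from it in the same intron of 26890 bp, 2919 bp upstream of that TSS, and was weaker, with signals of 75.3 and 48.8 and a pooled signal of 129.0. The summit of site 1 was also inside CG12912. All transcripts of Hr3 span site 2, but only 3 of 6 span site 1.

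Hr4 (FBgn0264562, chrX:1941940-2007956, forward strand) encodes a nuclear receptor that represses genes of the early response during metamorphosis. With the conservative list and the 5 kb window, Hr4 had as many sites as any protein-coding gene. Only 4 of the 13945 coding genes had 9 or more, and none had more than 9. The other 3, named here after their values were seen, were kirre, CHES-1-like and CG1677, and the limit of 9 is that of Hr4 itself. Among the 261 genes at least as long as the median member, 3 had at least 9 sites (1.15%), Hr4 among them. No other gene among those 261 had as many sites per 10 kb as Hr4, which had 1.18. Shorter genes below that length cut could have more, and CHES-1-like, of 27.0 kb, had 2.43. Hr4 lies on the X, as do br and usp, and none of these comparisons was matched for chromosome. Counted in the gene body alone, Hr4 had 7 sites. It had 4 at a global IDR of 0.001 or below and 10 with the larger list. Peaks called from replicate 1 alone gave 6, and those from replicate 2 alone gave 8. The rank of Hr4 among coding genes was not worked out for these settings.

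The sites of Hr4 ran from 1770 bp before the gene to 1899 bp beyond it. Sites 2 to 5 lay in intron 2 of Hr4-RK, an intron of 10387 bp. Their pooled signals were 189.0 at chrX:1947574-1947913, 88.2 at chrX:1948561-1948900, 171.0 at chrX:1951751-1952090 and 179.6 at chrX:1952960-1953299. Sites 2 and 3 were 987 bp apart and sites 4 and 5 1209 bp apart, with 3190 bp between the pairs. Each of the 4 had its own region in each replicate, so no peak was a shoulder of a neighbour by that measure. In replicate 1 the signals of sites 2 to 5 were 110.7, 51.7, 88.1 and 108.3, and in replicate 2 they were 79.6, 32.2, 94.5 and 54.4. Site 3 was the lowest of the 4 in both replicates, whereas site 4 was the third in replicate 1 and the highest in replicate 2.

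Site 6, in intron 3 at chrX:1963764-1964103, was the strongest of the gene, with signals of 134.7 and 84.8 and a pooled signal of 224.1. Site 7, in intron 5 at chrX:1984159-1984498, lay 7971 bp upstream of the TSS of the short transcripts Hr4-RE and Hr4-RF and had a pooled signal of 92.9 (49.0 and 42.9). The 6 intronic sites were spanned by 7 of the 9 transcripts of the gene. Site 8, at chrX:2005878-2006217 with a pooled signal of 104.2 (75.7 and 36.7), lay in the 3' untranslated region of Hr4-RK, the only transcript that reaches it. The outermost sites lay at promoters of neighbours: site 1 (chrX:1940000-1940339, pooled signal 135.3) was 130 bp upstream of CG3857, and site 9 (chrX:2009685-2010024, 101.0) was 102 bp upstream of lncRNA:CR45478 and 491 bp upstream of PIG-K. Neither TSS of Hr4 itself had a summit within 500 bp. Another region just missed the list, at chrX:1944154-1944493 and 2384 bp downstream of the main TSS, with signals of 39.0 and 51.0, a pooled signal of 92.1 and a −log10 global IDR of 1.88. It is in the larger list and in that of replicate 2.

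The sequences under 7 of the sites, at Hr4, Eip75B and br, are shown as examples, and their likeness to each other was not measured. Each is the forward strand of dm6 within 50 bp of the summit, from the NCBI RefSeq copy of the assembly, 5′ to 3′. Capitals mark the homeodomain word TAATTA, the related word CAATTA or its reverse complement TAATTG, and the words TGGCGCC and CGCCATCT on either strand. TGGCGCC and CGCCATCT were picked after reading these sequences, out of 11 words looked at.
Hr4 site 2, chrX:1947694-1947794: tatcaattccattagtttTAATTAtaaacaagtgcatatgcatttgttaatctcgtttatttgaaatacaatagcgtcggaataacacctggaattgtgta
Hr4 site 3, chrX:1948681-1948781: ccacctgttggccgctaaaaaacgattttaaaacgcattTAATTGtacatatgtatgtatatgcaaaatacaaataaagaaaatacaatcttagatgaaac
Hr4 site 4, chrX:1951871-1951971: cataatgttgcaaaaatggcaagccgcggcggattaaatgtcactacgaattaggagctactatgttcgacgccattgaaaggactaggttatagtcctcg
Hr4 site 5, chrX:1953080-1953180: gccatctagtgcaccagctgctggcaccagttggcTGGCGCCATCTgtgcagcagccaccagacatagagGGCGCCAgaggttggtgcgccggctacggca
Hr4 site 6, chrX:1963884-1963984: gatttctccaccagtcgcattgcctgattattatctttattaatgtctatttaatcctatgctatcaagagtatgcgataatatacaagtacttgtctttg
Eip75B site 2, chr3L:18019772-18019872: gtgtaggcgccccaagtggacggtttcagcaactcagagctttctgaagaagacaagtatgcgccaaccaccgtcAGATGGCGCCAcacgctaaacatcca
br site 1, chrX:1618806-1618906: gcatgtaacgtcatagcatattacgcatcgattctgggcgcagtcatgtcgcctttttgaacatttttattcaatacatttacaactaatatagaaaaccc

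Base composition varied widely among the sites, also inside a single intron. Within 50 bp of the summit the GC content was 28.7% at Hr4 sites 2 and 3, 44.6% at site 4 and 65.3% at site 5. Over the 17 sites it ranged from 26.7% to 65.3% with a median of 36.6%, against a median of 33.7% over all conservative peaks (quartiles 27.7% and 42.6%). The 2 sites of Eip75B were GC-rich (56.4% and 54.5%), while Hr3 sites 1 and 2 (28.7% and 26.7%) were AT-rich.

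None of the nuclear receptor words searched for was found at the summits. Other half-sites, other spacings and repeats with more mismatches were not searched for. The hexamer AGGTCA, which the EcR and Usp heterodimer recognises as an inverted repeat with 1 base between the copies, was within 50 bp of the summit on either strand at 0 of the 17 sites, against 1.72% of all conservative peaks and 2.68% of ranked regions that did not pass. The longer AAGGTCA, a word of receptors that bind as monomers, was also at 0 of 17 (0.575% and 0.946%). No 13-base stretch matched the inverted repeat with up to 2 mismatches at any of the 17 sites, against 0.0383% of all peaks and 0.221% of regions that did not pass. With shares this low in all peaks, finding none in 17 was not distinguishable from the rate in the other peaks, and it says nothing about the receptors' own binding.

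Among homeodomain words, the longer TAATTA and CAATTA were each missing at most sites, while the core TAAT was at most of them. TAATTA was at 3 of the 17 (usp, Hr4 site 2 and Hr4 site 9), against 8.66% of all peaks and 5.21% of regions that did not pass. CAATTA was at 2 of the 17 (Hr4 sites 3 and 9), against 11.0% and 8.18%. The core TAAT, contained in TAATTA and in the reverse complement of CAATTA, was at 12 of 17 (70.6%), against 74.1% of all peaks and 52.0% of the regions that did not pass. Moved 250 bp to the left and to the right of the 17 summits, the same search found it 9 and 6 times. The GAGA factor word GAGAG was at 0 of the 17, against 10.1% of all peaks. The word of the DNA replication-related element (TATCGATA, 2.41% of all peaks), the E-box (CACGTG, 0.843%) and the Zelda word (CAGGTAG, 0.307%) were also at 0.

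A pair of GC-rich words recurred at a few sites. TGGCGCC was within 50 bp of 3 of the 17 summits, Eip75B site 2, Hr4 site 5 and Hr4 site 8, against 2.11% of all peaks and 1.32% of regions that did not pass. CGCCATCT was also at 3, EcR, Eip75B site 2 and Hr4 site 5, against 1.42% and 0.367%. The 2 words overlap at Eip75B site 2 and Hr4 site 5, as the capitals in the sequences show. Both were kept, because they stood out, from 11 words looked at on these same sites. The other 9 were at 0 to 3 of the 17. The counts therefore only describe the sites, and no weight can be put on their distance from the background.

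The other early-late gene, Hr39 (FBgn0261239, chr2L:21237250-21259675, forward strand), a nuclear receptor close in sequence to Ftz-f1, stood apart in having few regions of any kind. Its window of 32.4 kb had 8 ranked regions, or 2.47 per 10 kb, against 10.7 per 10 kb over the arms and 5.70 to 14.7 at the other 9 genes. The best had signals of 36.1 and 14.2 and a −log10 global IDR of 0.406, and it lay outside the gene, 42 bp upstream of the antisense RNA gene asRNA:CR45713. The nearest conservative summit was 22131 bp away.

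The late gene ftz-f1 (FBgn0001078, chr3L:18750607-18801309, reverse strand) encodes a nuclear receptor that acts as a competence factor for later responses to the hormone and as a partner of the pair-rule protein Ftz in the early embryo. It had no conservative site. A region 350 bp upstream of the TSS shared by ftz-f1-RC and ftz-f1-RD, at chr3L:18765924-18766263, reached 60.5 in replicate 1 and 11.7 in replicate 2, a ratio of 5.15. It passed in the list of replicate 1 and in the larger list, with a pooled signal of 67.0, but its −log10 global IDR between the replicates was only 0.147. Another region, 14387 bp downstream of the TSS of ftz-f1-RB, had the higher −log10 global IDR of 1.66, with signals of 42.4 and 25.2.

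Hr38 (FBgn0014859, chr2L:20683462-20714588, reverse strand), the relative of the vertebrate NR4A receptors and an alternative partner of Usp, likewise had no site in any thresholded list. The best of its 52 ranked regions lay 2024 bp upstream of its single TSS, between genes, with signals of 43.2 and 25.1, a pooled signal of 71.2 and a −log10 global IDR of 1.68. The nearest conservative summit was 19747 bp from the gene.

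**Figure D2:**
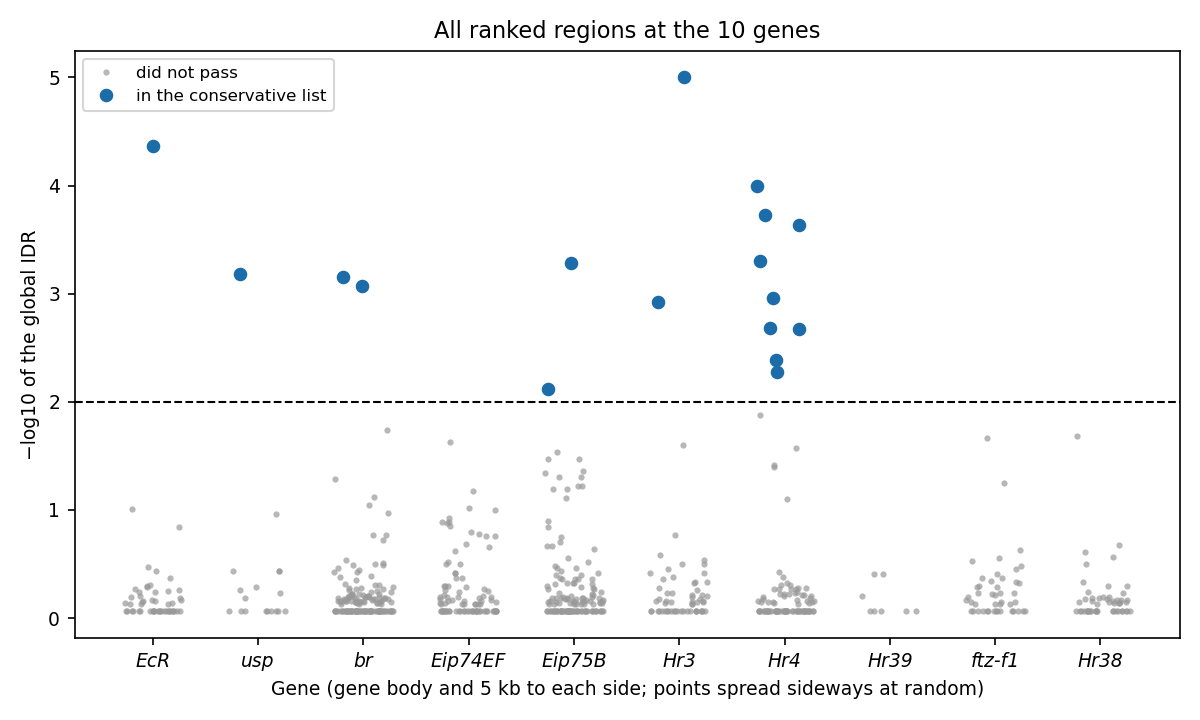
The −log10 of the global IDR between the replicates for each of the 704 ranked regions at the 10 genes, one column per gene, with the conservative list's threshold of 2 as a dashed line. The 17 listed regions are in blue, 9 of them at Hr4; the highest region below the line, at 1.88, is also at Hr4, and all regions of Hr39 lie at or below 0.406.

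Seen over all 704 ranked regions at the 10 genes, 2.41% were in the conservative list, against 1.83% of the 142665 on the arms. Hr4 alone had 9 of the 17 listed regions but 98 of the 704 ranked ones. At the other 9 genes, with 8 listed regions, the share was below that of the arms. Among the 4 genes without a site the best values, 1.62 at Eip74EF, 1.66 at ftz-f1, 1.68 at Hr38 and 0.406 at Hr39, were all under the threshold, 3 of them by less than 0.4.

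Replicate 1 was the higher at 15 of the 17 sites, and at 2380 of all 2610 conservative peaks. The list admits only regions that ranked alike in both replicates, so the likeness of the replicates at these sites was set by that filter; regions at the same genes that did not pass reached 3.89 (Eip75B), 3.91 (Hr3) and 5.15 (ftz-f1) in the ratio of replicate 1 to replicate 2 where their pooled signal was highest. The ratio of replicate 1 to replicate 2 had a median of 1.39 and ranged from 0.885 at br site 1 to 2.43 at Eip75B site 2, against a median of 1.51 (quartiles 1.23 and 1.86) over all conservative peaks. The median signal of the 17 sites was 79.0 in replicate 1 and 54.4 in replicate 2, close to the medians of all peaks, 75.8 and 51.3. The median pooled signal was 143.1, against 124.1 over all peaks. Of the 17 sites, 12 overlapped a peak of both single-replicate lists (70.6%, against 50.5% of all conservative peaks), 1 was in the list of replicate 1 alone, 1 in that of replicate 2 alone and 3 in neither. Those 3 were Eip75B site 1, Hr4 site 3 and Hr4 site 9, with pooled signals of 85.3, 88.2 and 101.0, and the 2 seen in 1 replicate were Hr4 sites 8 and 7.

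**Figure D3:**
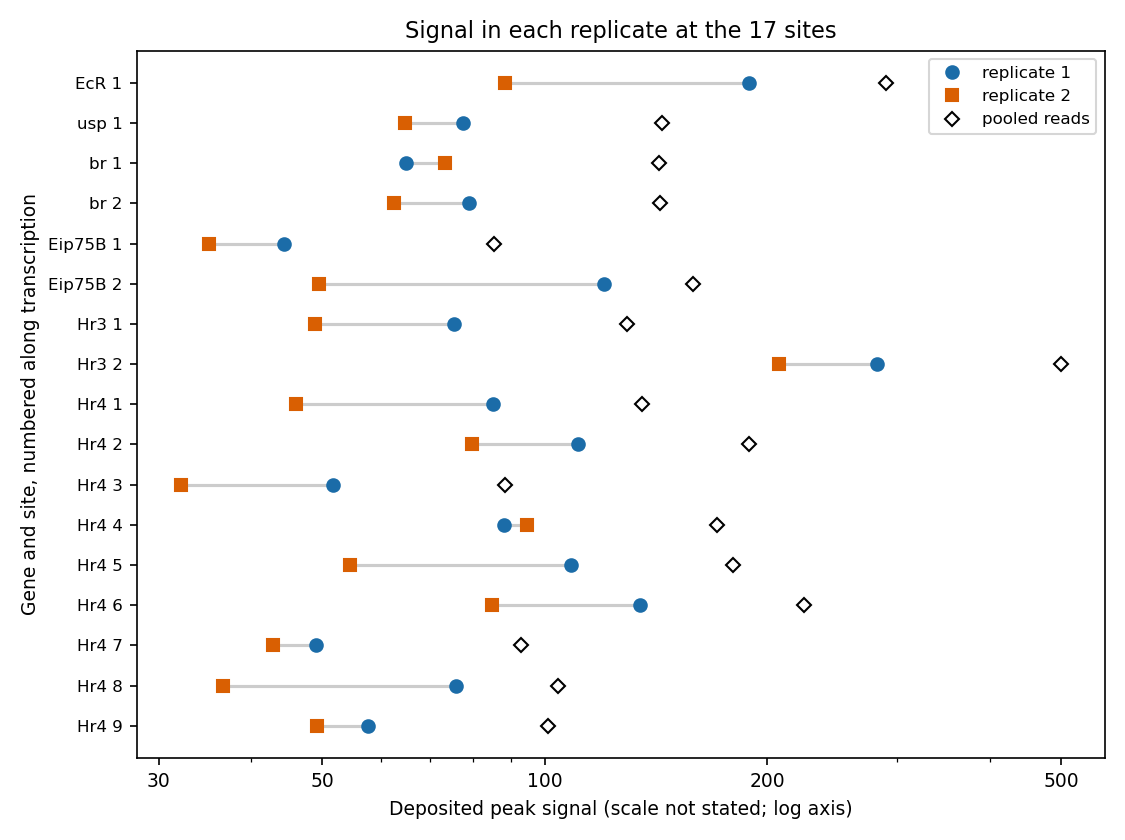
Deposited signal on a log axis at the 17 sites, numbered along transcription within each gene, in replicate 1 (circles), replicate 2 (squares) and the pooled reads (diamonds). Replicate 1 is the higher at 15 sites, all but br site 1 and Hr4 site 4, and Hr3 site 2 stands highest in all 3 series of points.

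The sites of these genes lay mostly inside introns. By class, 12 of the 17 were in an intron or non-coding exon (70.6%), 4 within 500 bp of a TSS of any gene (23.5%), 1 in a 3' untranslated region and 0 in coding exons, 5' untranslated exons away from a TSS or intergenic sequence. Of all conservative peaks 55.3% were within 500 bp of a TSS and 29.9% in introns or non-coding exons. The comparison with peaks at long genes is closer: of the 331 peaks at the 261 coding genes at least as long as the median member, 28.7% were within 500 bp of a TSS and 62.2% in introns or non-coding exons. The median distance to the nearest TSS was 2559 bp at the 10 genes, 2136 bp at the long genes, which include 5 of the members, and 342 bp over all peaks. The 4 promoter summits were those at usp, CG3740, CG3857 and lncRNA:CR45478, so only the first is at a member's promoter.

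**Figure D4:**
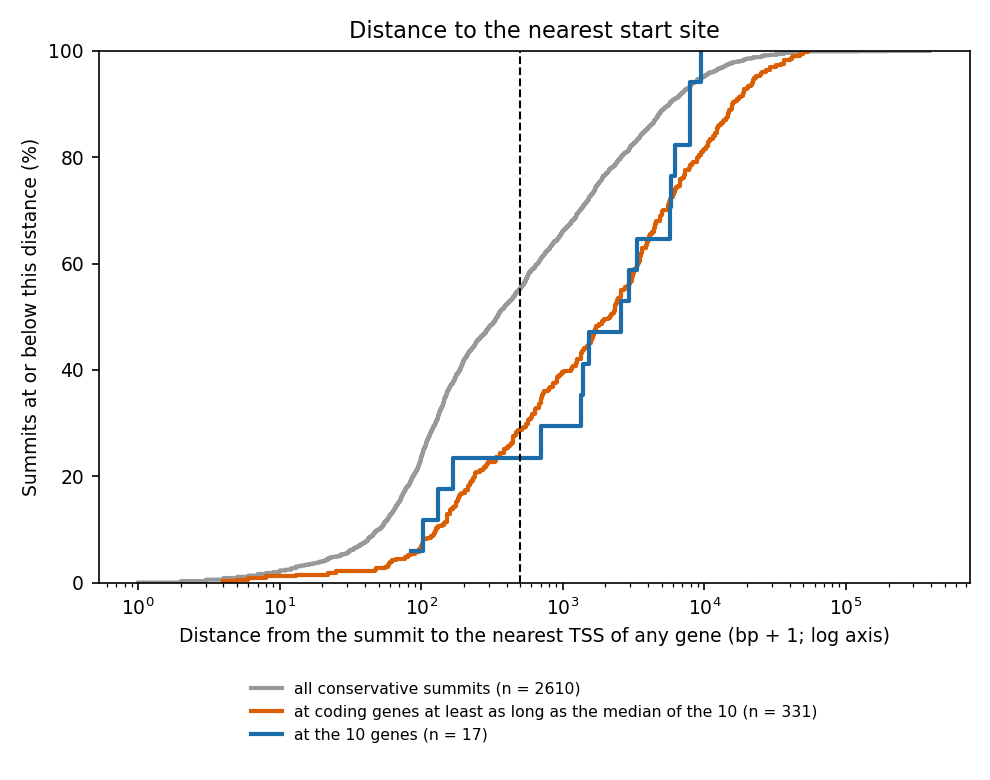
Cumulative percentage of conservative summits against the distance to the nearest TSS of any gene, in bp plus 1 on a log axis, for all 2610 peaks (grey), the 331 at long coding genes (orange) and the 17 at the 10 genes (blue). The dashed line marks 500 bp, at which the blue curve stands at 23.5%, the orange at 28.7% and the grey at 55.3%.

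Sites at the rest of the nuclear receptor family and of the ecdysone pathway were counted in the same window. There, 5 of the 13 other nuclear receptor genes had a site (38.5%), which with the 8 receptor genes among the members makes 10 of 21 (47.6%), against 35.4% of all coding genes. The 21 have a median length of 22.4 kb, however, and of coding genes of at least 20 kb 50.2% had a site. Many of the 21 are shorter than 20 kb, so that share is not matched to their lengths. The strongest were at Hr96 (277.0, 145 bp upstream of its TSS but nearer to that of EMC6), Hr51 (263.6, nearest to the TSS of unc-5) and ERR, the estrogen-related receptor (253.1, 214 bp upstream but nearer to Atg18a). Within 1 kb of a TSS, 4 of these 13 were bound, against 15.1% of all coding genes; they have a median length of 8.06 kb.

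Among 14 genes of ecdysteroid synthesis, transport and turnover 4 had a site (28.6%, against 35.4% of all coding genes), and none of the 4 strongest peaks but that of E23 was nearest to the listed gene. E23, an ABC transporter gene induced by the hormone, had a peak with a signal of 378.8 (200.6 and 162.4) 198 bp upstream of a TSS. The site given to sad, which encodes a cytochrome P450 of ecdysone synthesis, had a signal of 150.8 and was nearest to CG6962, and that of Ptth, the brain hormone that drives ecdysone release, had 144.5 and was nearest to cold. Of 11 cofactors and nuclear partners 8 had a site (72.7%, against 35.4% of all coding genes), led by Hsp83 (239.8, 78 bp upstream of a TSS), which encodes the Hsp90 chaperone, skd, a Mediator kinase module gene (174.4, nearest to Pdss2), and the corepressor gene Smr (167.7, 7082 bp downstream of its nearest TSS). In this list 5 genes were bound within 1 kb of a TSS, against 15.1% of all coding genes. These were tai, rig, skd, Iswi and Hsp83, and only for Hsp83 was the strongest peak nearest to the listed gene. Those of tai (218 bp upstream) and rig (917 bp upstream) were nearest to CG9586 and CG11110. That of Iswi lay 4328 bp upstream, nearest to muskelin. The 11 have a median length of 8.64 kb, and of coding genes of at least 3.51 kb 44.3% had a site. Whether length or neighbouring genes account for these shares was not tested.

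Of 27 other genes known to respond to ecdysone, 11 had a site (40.7%), near the 35.4% of all coding genes, and 2 had one within 1 kb of a TSS, where the share of all coding genes was 15.1%. The strongest were at the larval serum protein gene Lsp2 (277.9, nearest to yps), Cth (248.0, nearest to Sec6) and Sgs4, a salivary glue gene (222.7, nearest to dnc), each over 2 kb from a TSS of the listed gene. Both juvenile hormone receptor genes, a list of only 2, had a site, against 35.4% of all coding genes and 44.3% of those of at least 3.51 kb. The strongest peak of gce had signals of 236.2 and 210.7 and a pooled signal of 447.2, 532 bp upstream of a TSS. The peak given to Met (126.4) was nearest to Ptp10D. Over all 67 listed genes that are not members, 30 had a site (44.8%, against 35.4%) and 13 were bound within 1 kb of a TSS (against 15.1%). The 67 have a median length of 5.16 kb, and of coding genes of at least 3.51 kb 44.3% had a site, near the share of the 67. These counts were not tested.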

How the data were processed

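The authors deposited 8 peak files in dm6, per the deposited file lists: a conservative and a larger thresholded list from both replicates, a thresholded list for each replicate alone, and ranked, unthresholded regions for these. The sources used here name no caller, aligner or version. Signals are the authors' deposited values on an unstated scale, and the IDR score (830 to 1000 in the lists) is theirs. The −log10 global IDR is also as deposited. Replicate signals came from the ranked file that compares the replicates. In it, 94582 of 147249 regions had a region and signal identical to replicate 1's own file in one column and 73541 to replicate 2's in the other. On the arms, 85 ranked regions reached the score without being listed and were not used.

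Positions were computed with Python 3.11.15, numpy 2.4.6 and pandas 2.3.3; the Ensembl and RefSeq references share the files' assembly. Transposable elements were not counted as genes. A summit within 500 bp of a TSS was classed as promoter, then exon, untranslated region, intron or intergenic. No test was run: there is 1 group of 2 replicates. Placement and word search were tested on simulated data. The members, lists, rules and words were chosen with earlier results of these data known, and the backgrounds for genes of at least 20 kb, for 2 or more sites and for 9 or more were added after seeing the data; named genes are the members and, per list, up to 3 with the highest signal, with the gene nearest to each summit. For lncRNA:let7C, listed but non-coding, no value is given.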

Additional observations from a re-analysis of the deposited data

How the results depend on the processing

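Most counts changed little with the settings tried. The number of genes with a site, 6, stayed between 6 and 7 under all planned settings and was 5 of 9 without Hr4, and leaving out a replicate, by using the list of the other one alone, gave 6 to 7 genes and 15 to 16 sites. The 17 sites became 10 at a global IDR of 0.001 or below (4 of them at Hr4), 8 without Hr4, a setting added after seeing the data, and 23 in the larger list. The number within 500 bp of a TSS, 4, became 8 of 23 in the larger list and 2 of 8 without Hr4. The count of GAGAG, 0 within 50 bp, was 3 within 100 bp, 4 within 150 bp and 2 in the larger list, and that of TATCGATA, 0, was 1 within 100 bp and 1 within 150 bp. In all, 69 of 78 alternative values moved by less than 1.5 times or by less than the replicate spread. The 69 include word counts that were 0 in every setting and a median ratio recomputed from identical replicate signals. The tally is therefore a weak measure of stability. No paired analysis was possible because there is 1 group.

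Unknown depth limits how far weak or missing sites can be read, with 2 replicates and no control library analysed here.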
